A study of Homo sapiens with 4 samples.

Results

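The 58 genes described here encode subunits of chromatin complexes of opposing action, SWI/SNF and Polycomb, in SK-N-BE(2), a MYCN-amplified cell line from a human neuroblastoma. They comprise 28 SWI/SNF subunits, 11 subunits of Polycomb repressive complex 2 (PRC2) and 19 of Polycomb repressive complex 1 (PRC1), and were chosen by gene name, as subunits of these complexes. Each symbol matched a row among the 64252 of the count table, and all 58 passed the filter on low counts that left 18775 genes for testing. RNA was sequenced from cells given a short hairpin RNA (shRNA) against CDK5RAP3 (shCDK5RAP3, 2 libraries) and from cells given a control hairpin (shControl, 2 libraries). CDK5RAP3 is an adaptor of the UFM1 ligase at the endoplasmic reticulum, and the series' title also ties it to ER-phagy and to master transcription factors. Both groups are the same line, neither is labelled with a drug or a time after transfection, and the sources used here state neither the number of hairpins nor whether the cells are clones. The labels leave unsaid whether replicates came from separate cultures, so p-values measure only the spread between these libraries.

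SWI/SNF complexes use ATP to slide or evict nucleosomes and so open chromatin at promoters and enhancers. They come in 3 forms, canonical BAF, PBAF and non-canonical BAF, which share an ATPase and much of a core and differ in their DNA-binding and histone-reading subunits. Several slots are filled by either of a pair of paralogues, and neurons are known to exchange progenitor subunits for neuronal ones. PRC2 methylates histone H3 at lysine 27, a mark of silent developmental genes. PRC1 ubiquitinates histone H2A and, in its canonical form, reads the PRC2 mark through a CBX subunit and compacts chromatin through a PHC subunit. EZH2, the main PRC2 enzyme, is known to help keep neuroblastoma cells undifferentiated, and loss of ARID1A or ARID1B is recurrent in these tumours.

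Library depth was similar, with 28653689 and 30138393 counts in the shCDK5RAP3 libraries, against 28721740 and 28755837 in the shControl libraries. CDK5RAP3 itself had 1669 and 1689 counts in the shCDK5RAP3 libraries, against 2529 and 2866 in the shControl libraries, or 62.1% of control (edgeR quasi-likelihood test, adjusted p = 0.000163). The noradrenergic markers were all detected, with 9 of 10 lower, where 21.8% of all genes tested were lower. Their summed level was 4703 and 4850 CPM (counts scaled to library size) in shCDK5RAP3, against 7786 and 8321 CPM in shControl. Most of that sum was the amplified MYCN, with 2813 and 2881 CPM in shCDK5RAP3, against 4674 and 4921 CPM in shControl. The summed markers of leukocytes, endothelium, epithelium and Schwann cells each stayed between 1.05 and 2.97 CPM in the shCDK5RAP3 libraries, against 1.38 to 4.92 CPM in the shControl libraries, with CD3E, CDH1 and SOX10 at 0. The fibroblast list, of which 4 of 5 genes were lower, summed to 211 and 197 CPM in the shCDK5RAP3 libraries, against 364 and 361 CPM in the shControl libraries. The endothelial, epithelial and Schwann lists each had 1 gene lower, and the leukocyte list had 0. The part of these marker differences in the results that follow was not tested. In bulk RNA, fewer cells of a type and less RNA per cell cannot be told apart.

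The subunits changed widely but in no common direction. Of the 58 genes, 20 were higher in the shCDK5RAP3 libraries, 20 were lower and 18 did not pass an adjusted p of 0.05 (edgeR, 2 libraries a group). That is 69.0% called, against 41.5% of all genes tested, of which 19.7% were higher and 21.8% lower. The genes are well expressed, and the share called is higher at higher expression: among genes with a mean log2 CPM of at least 5 the calls came to 59.2% (33.7% higher and 25.5% lower), and among the 43 subunits at that level to 69.8% (13 higher and 17 lower). The median log2 fold change (shCDK5RAP3 over shControl) was -0.06 over the subunits and -0.00 over all genes, and the median absolute change was 0.29 over the subunits, against 0.37 over all genes and 0.27 over those with a mean log2 CPM of at least 5. Changes ran from -0.89 for PHC1 to 1.08 for CBX6. A change of at least 0.5 accompanied the call in 18 subunits, 10 higher and 8 lower, where 25.6% of all genes met both criteria, and 23.0% of those with a mean log2 CPM of at least 5. The groups did not overlap in 49 of the 58 (84.5%), against 71.4% of all genes and 81.6% of those at that level. Without shCDK5RAP3 replicate 1 the counts were 11 higher and 7 lower, and without shCDK5RAP3 replicate 2 they were 9 higher and 7 lower. With no filter on low counts they were 11 higher and 9 lower.

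**Figure D1:**
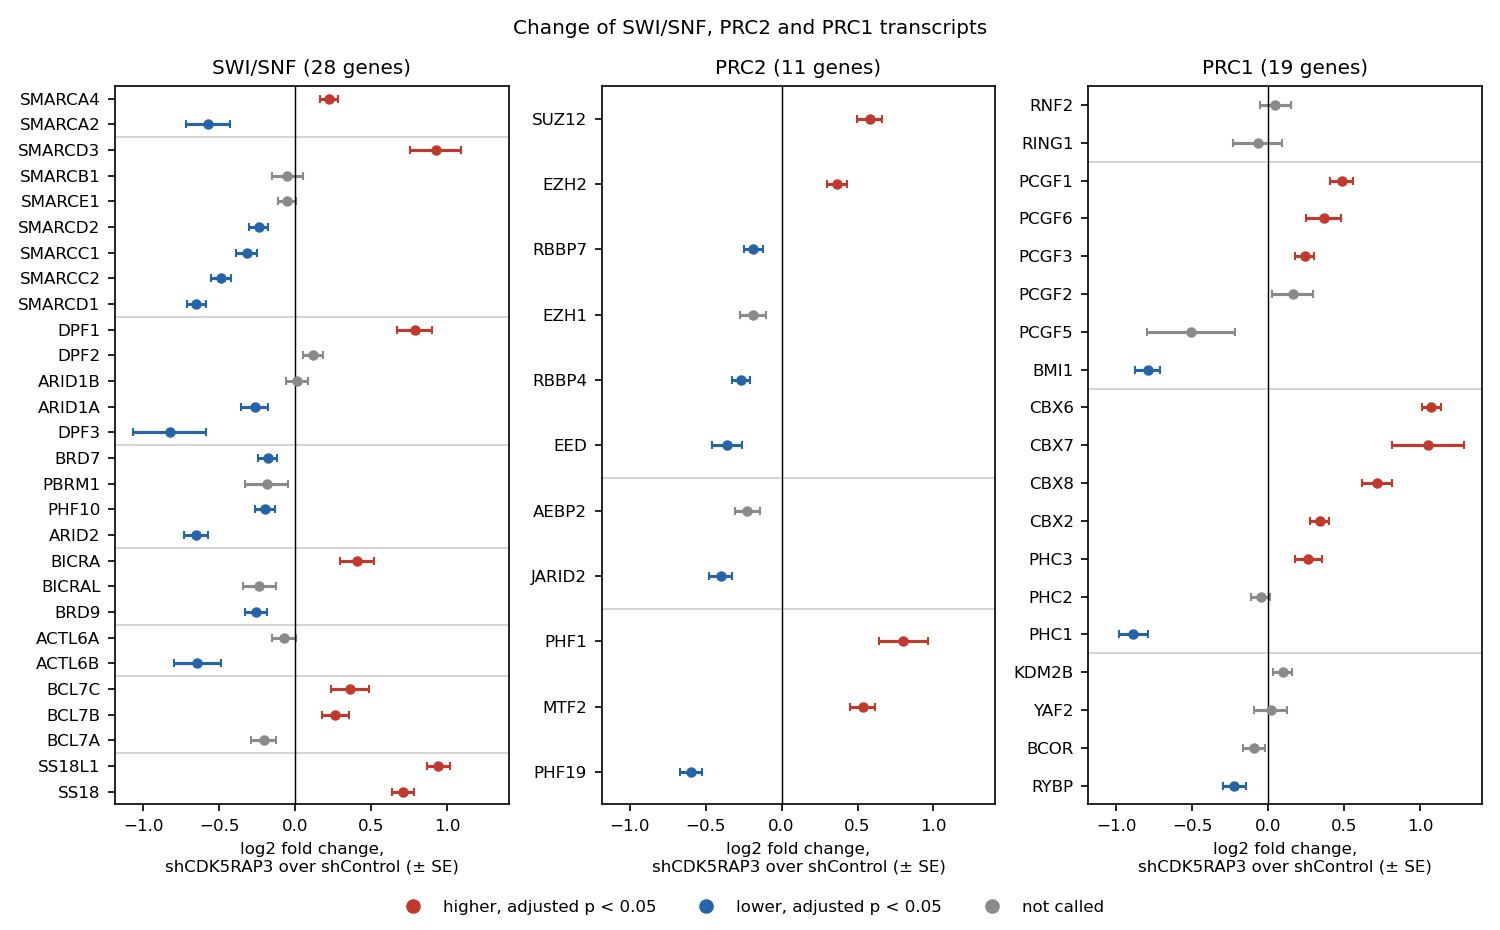
Log2 fold change (shCDK5RAP3 over shControl, horizontal axis) of each of the 58 subunits, grouped by complex, with bars of 1 standard error; red, higher; blue, lower; grey, not called (edgeR adjusted p of 0.05). CBX6 at 1.08 and PHC1 at -0.89 stand at the ends, both in PRC1.

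Calls are given by complex, and whether the balance of higher and lower calls differs between the 3 was not tested. SWI/SNF had 8 subunits higher, 12 lower and 8 not called (71.4% called, median -0.18). PRC2 had 4 higher, 5 lower and 2 not called (81.8%, median -0.19). PRC1 had 8 higher, 3 lower and 8 not called (57.9%, median 0.10). Among all genes with a mean log2 CPM of at least 5, 59.2% were called, 33.7% higher and 25.5% lower. The share called in PRC1 is near that value. In 14 subunits the call was kept under all 12 alternative settings that could change it, including each library left out in turn: SMARCC2, SMARCD1, ARID2, DPF1, SS18 and SS18L1 of SWI/SNF, SUZ12, MTF2 and PHF19 of PRC2, and BMI1, PCGF1, CBX6, CBX8 and PHC1 of PRC1. The other 26 lost it under at least 1 setting. With no filter on low counts 20 calls were lost (edgeR adjusted p = 0.051 to 0.248): SMARCA2, SMARCA4, SMARCC1, SMARCD2, SMARCD3, ARID1A, BRD7, BRD9, PHF10, DPF3, BCL7B, BCL7C, BICRA, EED, PHF1, RBBP7, PCGF6, CBX7, PHC3 and RYBP. DESeq2 lost 10 of these (adjusted p = 0.0501 to 0.125): BRD7, PHF10, DPF3, BCL7B, BCL7C, BICRA, RBBP7, PCGF6, PHC3 and RYBP. Upper-quartile factors lost ARID1A, BRD7, PHF10, RBBP7 and RYBP, and scaling by library size alone lost BCL7B, BCL7C and PHC3. No called subunit changed sign under any of these settings.

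Some of the lower subunits hold 3′ UTR sequences that were linked to lower counts before. In an earlier analysis of these same libraries, genes holding the 7-base words AACACCT or ACACCTA in the 3′ UTR were lower in the shCDK5RAP3 libraries, so the counts here are no independent evidence. In the 3′ UTR of the transcript with the longest coding part, 3 of the 58 subunits hold a word, which is 5.17%, against 13.03% of tested genes that have an annotated 3′ UTR in a protein-coding transcript and a mean log2 CPM of at least 1 (1532 with a word and 10226 without). They are ARID2, the DNA-binding subunit of PBAF, SMARCD1, a core subunit of all 3 forms, and PCGF5, a subunit of variant PRC1. Their sites are printed from GENCODE 29 on GRCh38, as 30 bases on the sense strand with the word in capitals.
ARID2, chr12:45905529-45905558, plus strand: aaagtttcagcACACCTAtacccccgatct
SMARCD1, chr12:50099941-50099970, plus strand: ctgcccagttgACACCTActggtgacttct
PCGF5, chr10:91280223-91280252, plus strand: ataaatttgtcACACCTAggtcagcgatta
The words begin at base 462 of 2962 of the ARID2 3′ UTR, 952 of 1712 in SMARCD1 and 1918 of 6015 in PCGF5. ARID2 and SMARCD1 were lower and PCGF5, at -0.51, was not called. Of all genes with a word 46.0% were lower and 14.6% higher (median -0.24), against 25.2% and 26.8% of genes without one (median 0.02). Genes with a word also have longer 3′ UTRs, a median of 2928.5 bases against 881, and the part of length was not tested. The 55 subunits without a word had 20 higher and 18 lower, with a median of -0.05. A further 6, SMARCA2, PHF10, BRD7, PBRM1, ARID1B and YAF2, hold a word only in a longer annotated 3′ UTR, an alternative chosen after seeing the data. Of these 3 were lower and 0 higher. Of the 356 tested genes with a word only there, 37.9% were lower and 17.98% higher. A group of 6 is too small to tell apart from those shares, and the difference was not tested. The remaining 49 subunits, among them PHC1, BMI1, PHF19 and SMARCC2, hold neither word in either 3′ UTR.

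**Figure D2:**
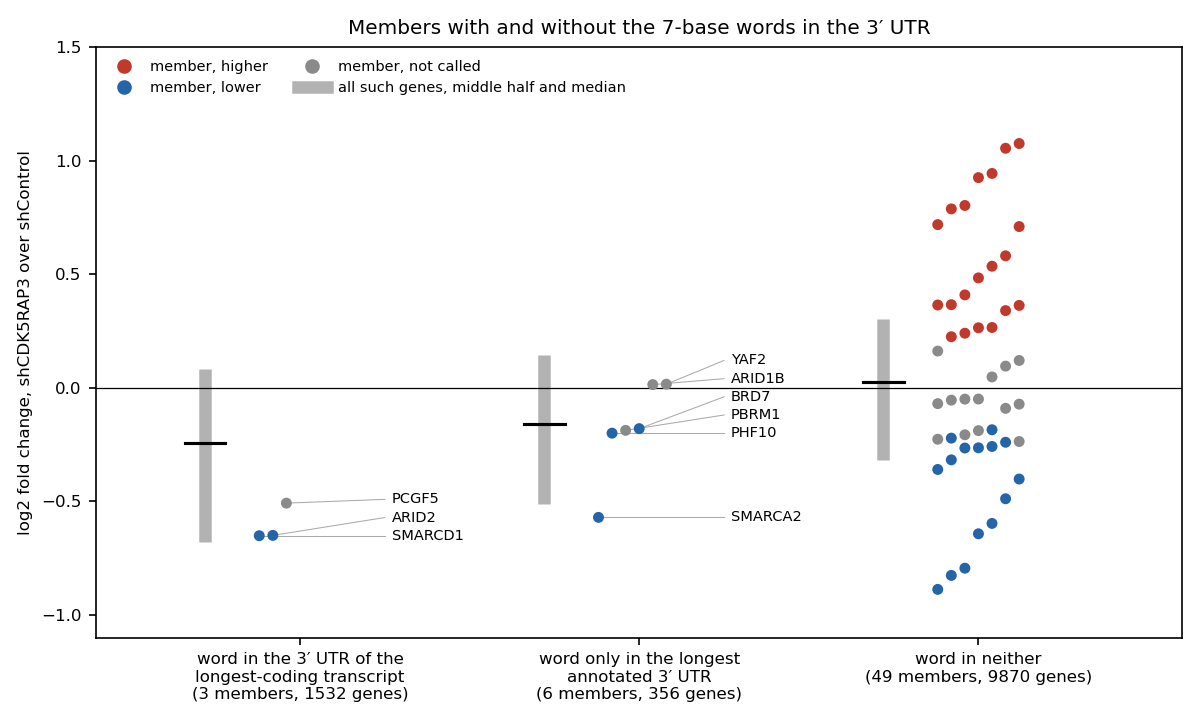
Log2 fold change (shCDK5RAP3 over shControl, vertical axis) of subunits with a word in the 3′ UTR of the longest-coding transcript (3), only in the longest annotated 3′ UTR (6) or in neither (49); grey bars and black lines are the middle 50% and median of all such genes with an annotated 3′ UTR and a mean log2 CPM of at least 1. All subunits called higher lie in the group without a word, which holds 49 of the 58. Of all such genes, 14.6% with a word in the longest-coding transcript were higher. The share was 17.98% with one only in the longest 3′ UTR and 27.1% in neither. Groups of 3 and 6 subunits are too small to tell apart from these shares.

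The catalytic pair of SWI/SNF moved apart. SMARCA4 (BRG1) had 783 and 745 CPM in the shCDK5RAP3 libraries, against 669 and 639 CPM in the shControl libraries (log2 fold change 0.22, SE 0.06, edgeR adjusted p = 0.0120). SMARCA2 (BRM), the alternative ATPase, had 9.07 and 8.25 CPM in the shCDK5RAP3 libraries, against 12.3 and 13.5 CPM in the shControl libraries (-0.57, SE 0.14, edgeR adjusted p = 0.0119). For neither gene did the groups overlap. Per kilobase of transcript, SMARCA4 made up 98.9% and 99.0% of the pair in the shCDK5RAP3 libraries, against 98.3% and 98.1% in the shControl libraries, so the ATPase transcripts were nearly all SMARCA4 in both groups. Without shCDK5RAP3 replicate 1 or 2 neither call was kept (edgeR adjusted p = 0.133 and 0.0824 for SMARCA4, 0.0529 and 0.103 for SMARCA2).

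Of the 7 core subunits, 4 were lower, 1 was higher and 2 were not called. SMARCC1 and SMARCC2, the scaffold pair on which the complex is built, were both lower. SMARCC2 had 73.2 and 68.9 CPM in the shCDK5RAP3 libraries, against 102 and 97.7 CPM in the shControl libraries (log2 fold change -0.49, SE 0.07, edgeR adjusted p = 0.00048), and shares 6.01% of its exon bases with MYL6, which was higher by 0.70. SMARCC1 had 194 and 186 CPM in shCDK5RAP3 against 248 and 225 CPM in shControl (-0.32, edgeR adjusted p = 0.00567), a call lost without either shCDK5RAP3 library (0.0595 and 0.11). SMARCB1 (log2 fold change -0.05), the subunit lost in rhabdoid tumours, and SMARCE1 (-0.05) did not pass, SMARCE1 sharing 19.8% of its exon bases with AC073508.2. The 3 SMARCD paralogues, of which a complex takes 1, went different ways. SMARCD1, with the ACACCTA site printed above, fell to 113 and 109 CPM in the shCDK5RAP3 libraries, against 175 and 173 CPM in the shControl libraries (log2 fold change -0.65, SE 0.06, edgeR adjusted p = 6.3e-05). SMARCD2 had 139 and 134 CPM in the shCDK5RAP3 libraries, against 157 and 166 CPM in the shControl libraries (-0.24, edgeR adjusted p = 0.0152; lost without shCDK5RAP3 replicate 1 at 0.0935 and replicate 2 at 0.165). SMARCD3 (BAF60C), known for its role in heart and muscle in mice, rose to 16.5 and 17.6 CPM in the shCDK5RAP3 libraries, against 7.50 and 10.5 CPM in the shControl libraries (0.93, SE 0.17, edgeR adjusted p = 0.00230; 0.0663 without shCDK5RAP3 replicate 2 and 0.0628 with no filter). None of the 3 overlapped between groups. SMARCD3 shares 1.23% of its exon bases with the antisense gene CHPF2, which averaged 3719.75 counts and was higher by 0.83. Reads of SMARCD3 and CHPF2 may be shared, and their part in the SMARCD3 change was not tested. Per kilobase of transcript, SMARCD3 took 9.16% and 10.1% of the SMARCD sum in the shCDK5RAP3 libraries, against 3.44% and 4.62% in the shControl libraries, and SMARCD1 took 34.1% and 33.9% in shCDK5RAP3 against 43.7% and 41.7% in shControl.

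PBAF carried only lower calls among its own subunits. ARID2 had 50.1 and 45.6 CPM in the shCDK5RAP3 libraries, against 77.5 and 72.6 CPM in the shControl libraries, with no overlap (log2 fold change -0.65, SE 0.08, edgeR adjusted p = 0.000229). The bromodomain protein BRD7 (-0.18) and the PHD-finger protein PHF10 (-0.20) were lower by less. Neither call held without shCDK5RAP3 replicate 1 (edgeR adjusted p = 0.253 and 0.306) or replicate 2 (0.171 and 0.106), nor did that of BRD7 without shControl replicate 2 (0.0889) or that of PHF10 without shControl replicate 1 (0.0778). BRD7 shares 42.3% of its exon bases with ADCY7, which was lower by 0.89, and reads of the pair may be shared. PBRM1, the polybromo subunit, had 56.6 and 52.9 CPM in the shCDK5RAP3 libraries, against 73.5 and 51.3 CPM in the shControl libraries, and was not called (-0.19, edgeR adjusted p = 0.330). Its shControl libraries lay on either side of the shCDK5RAP3 ones, and without shControl replicate 2 it was called lower (0.000997).

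Canonical BAF showed the neuronal DPF1 higher and DPF3 lower. DPF1 (BAF45B), a histone reader of neuronal BAF, rose to 19.7 and 20.99 CPM in the shCDK5RAP3 libraries, against 11.4 and 12.1 CPM in the shControl libraries (log2 fold change 0.79, SE 0.12, edgeR adjusted p = 0.000728). DPF2, its ubiquitous paralogue, had 93.4 and 88.7 CPM in shCDK5RAP3 against 82.1 and 85.5 CPM in shControl and was not called (0.12). DPF3 was low, with 54 and 51 counts in the shCDK5RAP3 libraries, against 96 and 90 counts in the shControl libraries (-0.83, SE 0.24, edgeR adjusted p = 0.0222). Its call was lost without shCDK5RAP3 replicate 1 (0.0703), shCDK5RAP3 replicate 2 (0.112) or shControl replicate 1 (0.0715), and with DESeq2 (0.125). The 3 genes each kept their groups apart. DPF1 took 23.96% and 26.1% of the DPF sum per kilobase in the shCDK5RAP3 libraries, against 17.1% and 17.4% in the shControl libraries. The DNA-binding subunit ARID1A had 172 and 151 CPM in the shCDK5RAP3 libraries, against 208 and 179.7 CPM in the shControl libraries (-0.26, edgeR adjusted p = 0.0396), and ARID1B was not called (0.01). The ARID1A call was lost without shCDK5RAP3 replicate 1 (0.0819), shCDK5RAP3 replicate 2 (0.334) or shControl replicate 1 (0.153, with a log2 fold change of -0.16). In non-canonical BAF, the scaffold BICRA (GLTSCR1) was higher (0.41, edgeR adjusted p = 0.0188) and the bromodomain protein BRD9 lower (-0.26, edgeR adjusted p = 0.0168), while BICRAL was not called (-0.24). Without shCDK5RAP3 replicate 1 or 2 neither call was kept (edgeR adjusted p = 0.113 and 0.094 for BICRA, 0.0643 and 0.17 for BRD9), and that of BICRA was lost without shControl replicate 2 as well (0.0555).

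The SS18 slot rose as a whole. SS18L1 (CREST), the neuronal paralogue, had 91.98 and 94.8 CPM in the shCDK5RAP3 libraries, against 46.1 and 50.99 CPM in the shControl libraries (log2 fold change 0.94, SE 0.07, edgeR adjusted p = 2.45e-05). SS18, known from the SS18-SSX fusion of synovial sarcoma, had 65.1 and 64.6 CPM in the shCDK5RAP3 libraries, against 39.1 and 40.2 CPM in the shControl libraries (0.71, SE 0.07, edgeR adjusted p = 9.9e-05). Every shCDK5RAP3 library lay above every shControl library for both genes. Their sum per kilobase was 39.5 and 40.0 CPM in the shCDK5RAP3 libraries, against 21.7 and 23.1 CPM in the shControl libraries. In the actin-related slot ACTL6B (BAF53B), the neuron-specific subunit, fell to 6.66 and 7.61 CPM in the shCDK5RAP3 libraries, against 10.99 and 11.3 CPM in the shControl libraries (-0.64, SE 0.15, edgeR adjusted p = 0.00912; 0.0823 without shCDK5RAP3 replicate 1). ACTL6A (BAF53A), its progenitor paralogue, had 77.2 and 85.02 CPM in shCDK5RAP3 against 81.7 and 88.8 CPM in shControl, overlapped between groups and was not called (-0.07). The neuronal subunits split, with SS18L1 and DPF1 higher and ACTL6B and DPF3 lower, and among the progenitor subunits SS18 was higher, PHF10 lower and ACTL6A and DPF2 not called. In the BCL7 slot, BCL7B (0.26) and BCL7C (0.36) were higher and BCL7A (-0.21) was not called. BCL7A passed as lower when scaled by library size alone (edgeR adjusted p = 0.0491), with a replicate block (0.00977) and without shControl replicate 2 (0.031). The BCL7B and BCL7C calls were lost with DESeq2 (adjusted p = 0.111 and 0.0569). Neither call held without shCDK5RAP3 replicate 1 (edgeR adjusted p = 0.159 and 0.0697), shCDK5RAP3 replicate 2 (0.176 and 0.346) or shControl replicate 1 (0.184 and 0.193). BCL7C changed by 0.24 without shCDK5RAP3 replicate 2 and by 0.22 without shControl replicate 1, and it shares 11.3% of its exon bases with MIR762HG.

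**Figure D3:**
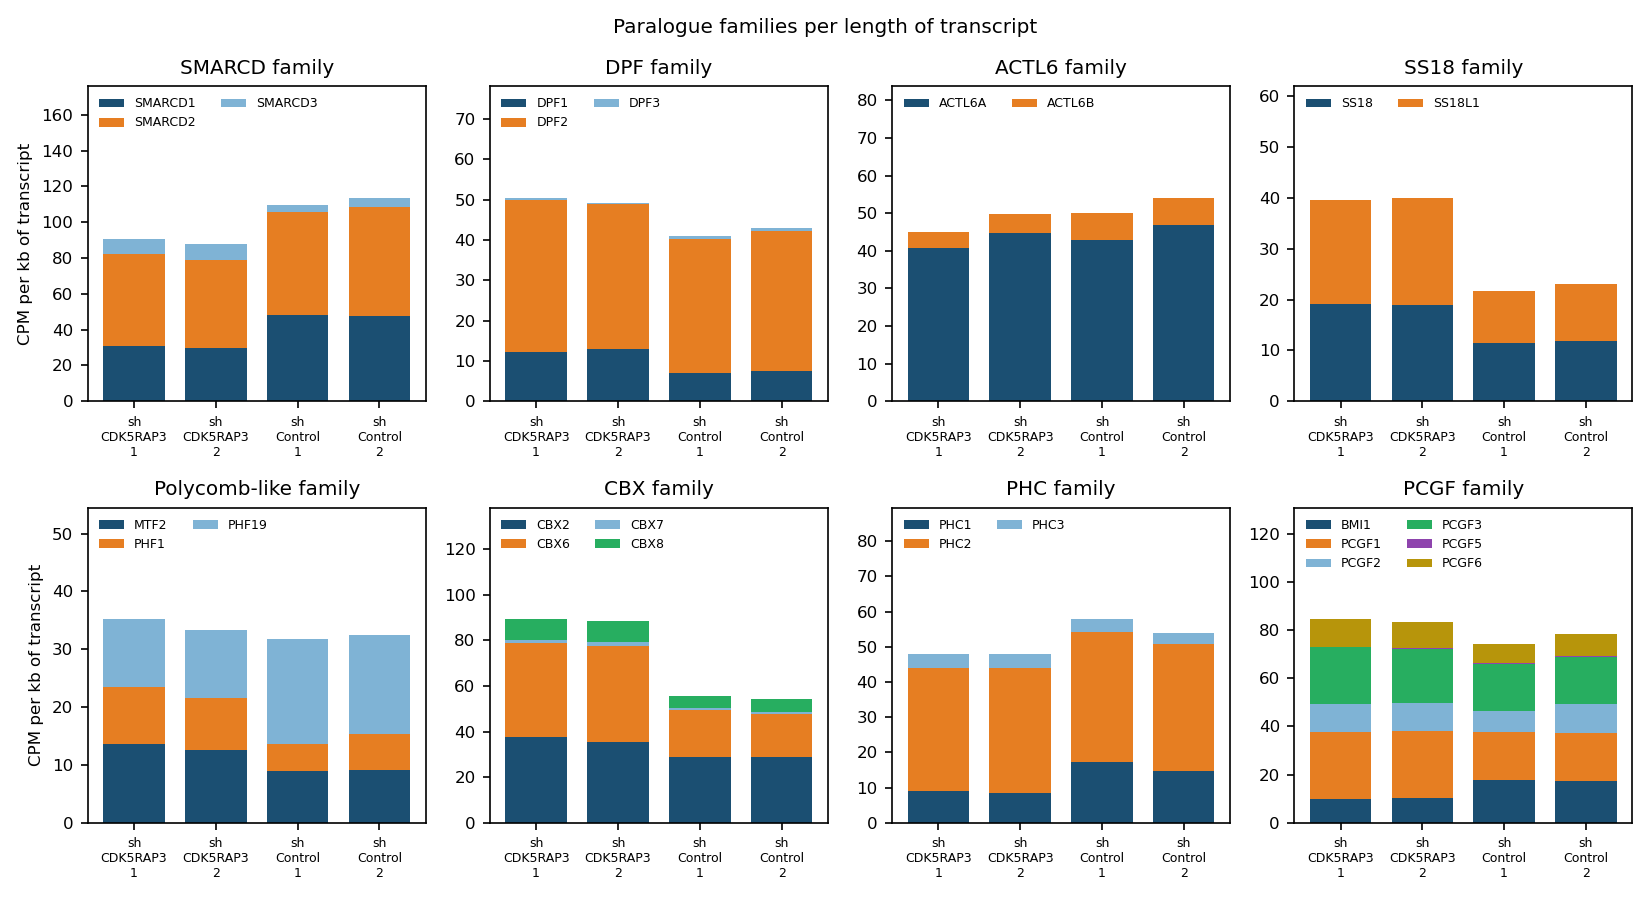
Stacked bars of subunits of 8 families that fill the same slot, in CPM per kilobase of transcript in each library, shCDK5RAP3 left of shControl within each family. The SS18 and CBX sums were higher in both shCDK5RAP3 libraries, and the Polycomb-like sum was 35.2 and 33.3 CPM per kilobase in shCDK5RAP3, against 31.8 and 32.4 in shControl, with a smaller part from PHF19 in shCDK5RAP3.

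In PRC2 the enzyme and its partners did not move together. EZH2, the main methyltransferase, had 180.5 and 179 CPM in the shCDK5RAP3 libraries, against 135 and 145 CPM in the shControl libraries (log2 fold change 0.36, SE 0.06, edgeR adjusted p = 0.00192; 0.0566 without shCDK5RAP3 replicate 2). EZH1, the paralogue of non-dividing cells, had 32.4 and 30.1 CPM in shCDK5RAP3 against 35.3 and 35.99 CPM in shControl and was not called (-0.19, edgeR adjusted p = 0.119). EZH2 made up 90.7% and 91.2% of the pair per kilobase in the shCDK5RAP3 libraries, against 87.00% and 87.6% in the shControl libraries. SUZ12, the scaffold that holds the accessory subunits, rose to 59.1 and 65.8 CPM in the shCDK5RAP3 libraries, against 40.6 and 42.97 CPM in the shControl libraries (0.58, SE 0.08, edgeR adjusted p = 0.000615). It has a near-identical pseudogene, SUZ12P1, which changed by 0.11. EED, the reader of the methyl mark, had 26.5 and 29.5 CPM in the shCDK5RAP3 libraries, against 34.4 and 37.4 CPM in the shControl libraries (-0.36, edgeR adjusted p = 0.0160). Its call was lost without shCDK5RAP3 replicate 1 (0.152), shCDK5RAP3 replicate 2 (0.0663) or shControl replicate 2 (0.0611). The histone-binding pair was also lower, RBBP4 with 252 and 247 CPM in shCDK5RAP3 against 302 and 298 CPM in shControl (-0.27, edgeR adjusted p = 0.00581) and RBBP7 with 155 and 163 CPM in shCDK5RAP3 against 179.9 and 181 CPM in shControl (-0.18, edgeR adjusted p = 0.0400). RBBP4 lost its call without shCDK5RAP3 replicate 1 (0.072) or replicate 2 (0.0947), and RBBP7 without any of the 4 libraries (0.306 and 0.127 without shCDK5RAP3 replicates 1 and 2, 0.0539 and 0.0699 without shControl replicates 1 and 2). Both also serve other histone-modifying complexes.

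The Polycomb-like proteins, which define PRC2.1 and bring it to CpG islands, moved in opposite directions. PHF19 (PCL3) fell to 47.8 and 48.2 CPM in the shCDK5RAP3 libraries, against 74.99 and 70.2 CPM in the shControl libraries (log2 fold change -0.60, SE 0.07, edgeR adjusted p = 0.000236). MTF2 (PCL2) rose to 56.3 and 51.6 CPM in the shCDK5RAP3 libraries, against 37.1 and 37.4 CPM in the shControl libraries (0.53, SE 0.08, edgeR adjusted p = 0.000848). PHF1 (PCL1) rose to 23.1 and 21.1 CPM in the shCDK5RAP3 libraries, against 10.6 and 14.7 CPM in the shControl libraries (0.80, SE 0.16, edgeR adjusted p = 0.00348). The groups did not overlap for any of the 3, and the PHF1 call was lost without shCDK5RAP3 replicate 1 (0.0562) or replicate 2 (0.0611) and with no filter (0.0821). Per kilobase of transcript, PHF19 took 33.02% and 35.2% of their sum in the shCDK5RAP3 libraries, against 57.4% and 52.6% in the shControl libraries, while MTF2 took 38.8% and 37.6% in shCDK5RAP3 against 28.3% and 27.9% in shControl and PHF1 28.2% and 27.2% in shCDK5RAP3 against 14.3% and 19.5% in shControl. The sum itself was 35.2 and 33.3 CPM per kilobase in the shCDK5RAP3 libraries, against 31.8 and 32.4 in the shControl libraries. PRC2.2 is defined by JARID2 and AEBP2. JARID2, which helps recruit PRC2, had 47.8 and 46.9 CPM in the shCDK5RAP3 libraries, against 65.00 and 60.03 CPM in the shControl libraries (-0.40, edgeR adjusted p = 0.00277; 0.0617 without shCDK5RAP3 replicate 2). AEBP2 was not called (-0.23, edgeR adjusted p = 0.0523), though it passed when scaled by library size alone (0.0346) and with a replicate block (0.0278).

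PRC1 held the widest changes of the 58 genes, while its catalytic pair was not called. RING1 had 7.08 and 7.64 CPM in the shCDK5RAP3 libraries, against 7.47 and 7.98 CPM in the shControl libraries, and RNF2 (RING1B), the main ubiquitin ligase, 21.3 and 22.7 CPM in shCDK5RAP3 against 20.5 and 22.1 CPM in shControl. Both overlapped between groups and neither was called (log2 fold changes -0.07, SE 0.16, and 0.05, SE 0.10). The CBX subunits, readers of the PRC2 mark, were all higher. CBX6 rose to 252 and 258 CPM in the shCDK5RAP3 libraries, against 125 and 117 CPM in the shControl libraries (1.08, SE 0.06, edgeR adjusted p = 5.81e-06). CBX8 rose to 33.8 and 33.8 CPM in the shCDK5RAP3 libraries, against 19.5 and 21.6 CPM in the shControl libraries (0.72, SE 0.10, edgeR adjusted p = 0.000443). In CBX6 and CBX8 each shCDK5RAP3 library exceeded each shControl library by far more than libraries of a group differed. CBX2 rose to 175 and 164 CPM in the shCDK5RAP3 libraries, against 135 and 133 CPM in the shControl libraries (0.34, SE 0.06, edgeR adjusted p = 0.00269; 0.0543 without shCDK5RAP3 replicate 1). CBX7, which represses the CDKN2A locus, was low, with 6.06 and 8.48 CPM in the shCDK5RAP3 libraries, against 4.01 and 2.99 CPM in the shControl libraries (1.05, SE 0.24, edgeR adjusted p = 0.00645; 0.105 without shCDK5RAP3 replicate 2 and 0.0941 with no filter). It shares 17.9% of its exon bases with the antisense gene AL031846.2, which averaged 19.8 counts. The sum of the 4 per kilobase was 89.3 and 88.4 CPM in the shCDK5RAP3 libraries, against 55.6 and 54.2 CPM in the shControl libraries, and CBX6 took 46.1% and 47.6% of it in shCDK5RAP3, against 36.8% and 35.2% in shControl.

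**Figure D4:**
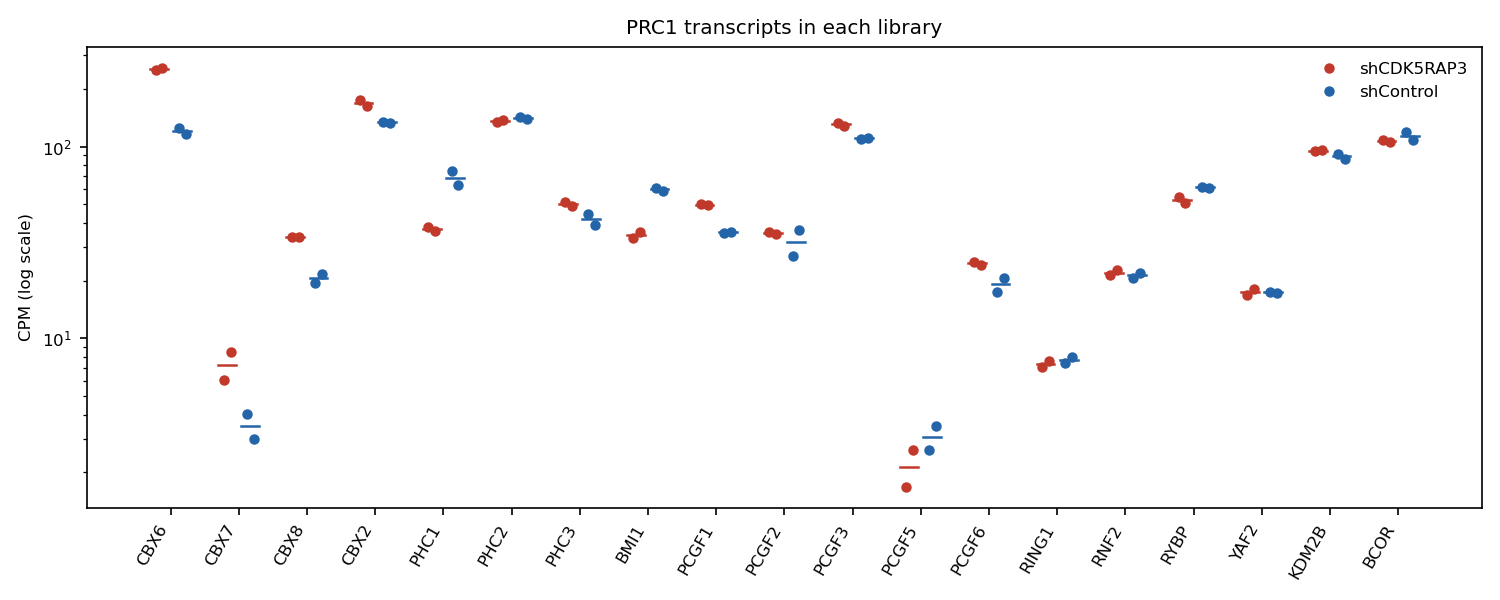
CPM of PRC1 subunits in each library, shCDK5RAP3 left of shControl, on a log axis; each point is a library and each line the mean of the group. CBX6, CBX8 and CBX2 were higher and BMI1 and PHC1 lower in both shCDK5RAP3 libraries, while RING1 and RNF2 overlapped.

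PHC1 and BMI1 went the other way. PHC1, the polyhomeotic subunit through which canonical PRC1 polymerises, fell to 38.1 and 36.2 CPM in the shCDK5RAP3 libraries, against 74.4 and 63.1 CPM in the shControl libraries (log2 fold change -0.89, SE 0.09, edgeR adjusted p = 0.000115). It shares 18.1% of its exon bases with the antisense gene M6PR, which was higher (1.10), and has the pseudogene PHC1P1 (-0.67), and the sources used here do not say whether strand was used in counting. PHC2, the most abundant of the 3, had 135 and 137 CPM in shCDK5RAP3 against 143 and 139 CPM in shControl and was not called (-0.05), and PHC3 had 51.8 and 48.8 CPM in shCDK5RAP3 against 44.6 and 39.2 CPM in shControl (0.27, edgeR adjusted p = 0.0405; 0.219 and 0.143 without shCDK5RAP3 replicates 1 and 2, and 0.2 without shControl replicate 2, with a log2 fold change of 0.17). PHC2 took 72.9% and 74.3% of the PHC sum per kilobase in the shCDK5RAP3 libraries, against 63.9% and 66.9% in the shControl libraries, and that sum was 47.9 and 47.8 CPM in shCDK5RAP3, against 57.8 and 53.8 CPM in shControl. BMI1 (PCGF4), the RING partner that represses CDKN2A and sustains self-renewal, fell to 33.2 and 35.9 CPM in the shCDK5RAP3 libraries, against 61.02 and 58.8 CPM in the shControl libraries (-0.79, SE 0.08, edgeR adjusted p = 9.11e-05). It shares 23.3% of its exon bases with the read-through gene COMMD3-BMI1, which averaged 3.25 counts. PCGF2 (MEL18), its closest paralogue, had 35.9 and 35.1 CPM in the shCDK5RAP3 libraries, against 26.8 and 36.7 CPM in the shControl libraries, overlapped and was not called (0.16), and without shControl replicate 2 it passed as higher (0.0119). It shares 32.7% of its exon bases with CISD3 and 12.99% with AC006449.5. Among the PCGF proteins of variant PRC1, PCGF1 rose to 50.2 and 49.6 CPM in the shCDK5RAP3 libraries, against 35.6 and 35.8 CPM in the shControl libraries (0.48, SE 0.08, edgeR adjusted p = 0.00113). PCGF3 (133 and 129 CPM in shCDK5RAP3 against 110.3 and 111 CPM in shControl) and PCGF6 (25.2 and 24.1 CPM in shCDK5RAP3 against 17.6 and 20.7 CPM in shControl) were also higher, by 0.24 and 0.37, with both calls lost without shCDK5RAP3 replicate 1 (edgeR adjusted p = 0.118 and 0.159) or replicate 2 (0.0957 and 0.141), and that of PCGF6 also without shControl replicate 1 (0.148). PCGF3 shares 6.40% of its exon bases with AC139887.2, which was higher by 0.76. PCGF5 had 48 and 77 counts in the shCDK5RAP3 libraries, against 76 and 101 in the shControl libraries, and was not called (-0.51, SE 0.29, edgeR adjusted p = 0.195). BMI1 took 11.5% and 12.5% of the PCGF sum per kilobase in the shCDK5RAP3 libraries, against 24.03% and 21.9% in the shControl libraries. Among the other subunits of variant PRC1, RYBP was lower (-0.22, edgeR adjusted p = 0.0386), and its paralogue YAF2 (0.02), the CpG-binding demethylase KDM2B (0.10) and the corepressor BCOR (-0.09) were not called. The RYBP call was lost without any of the 4 libraries (0.106 and 0.235 without shCDK5RAP3 replicates 1 and 2, 0.0885 and 0.0548 without shControl replicates 1 and 2).

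Promoters were read for the E-box CACGTG, the site of MYC and MAX proteins, as MYCN itself was lower in the shCDK5RAP3 libraries (log2 fold change -0.75). RefSeq promoters on GRCh38.p14, from 250 bases before to 50 after the start, were found for 52 of the 58 genes. The motif, which reads the same on both strands, was in 8 of them (15.4%), against 1195 of 11949 genes. Of these 8, BMI1 and RBBP4 were lower, CBX6 and PHC3 higher and BCOR, PBRM1, PHC2 and YAF2 not called. The 2 with the widest changes, in opposite directions, are printed with the E-box in capitals.
BMI1, chr10:22320849-22321148, plus strand: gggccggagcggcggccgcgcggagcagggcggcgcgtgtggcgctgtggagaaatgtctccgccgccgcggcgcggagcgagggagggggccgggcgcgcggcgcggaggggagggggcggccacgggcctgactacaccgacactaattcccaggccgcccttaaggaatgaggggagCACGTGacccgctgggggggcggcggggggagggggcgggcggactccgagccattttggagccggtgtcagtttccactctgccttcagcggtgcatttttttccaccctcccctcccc
CBX6, chr22:38872167-38872466, minus strand: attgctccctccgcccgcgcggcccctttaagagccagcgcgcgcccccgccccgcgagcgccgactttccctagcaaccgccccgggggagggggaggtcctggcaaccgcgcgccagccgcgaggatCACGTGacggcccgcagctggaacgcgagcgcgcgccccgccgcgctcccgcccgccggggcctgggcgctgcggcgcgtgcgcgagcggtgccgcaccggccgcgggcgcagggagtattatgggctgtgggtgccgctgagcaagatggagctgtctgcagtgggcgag
Of the other motifs searched on both strands, CCAAT was in 23 promoters (44.2%, against 36.4% of all), TGACNNNGC in 4 (7.69%, against 15.0%), TGANTCA in 2 (3.85%, against 4.54%) and TGACGTCA in 0 (against 3.22%). A match is a description of the letters in the window.

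The CBX genes lie in clusters, and their neighbours did not all share their direction. On chromosome 17 of GRCh38, CBX2 (79778132 to 79787983) and CBX8 (79792132 to 79801683) are adjacent and both were higher. Further along, TBC1D16 (-0.44), CCDC40 (-0.54), GAA (-0.58) and SGSH (-0.34) were lower and EIF4A3 (0.37) was higher. On chromosome 22, CBX6 (38861450 to 38872314) lies beside NPTXR, which was lower (-1.16). Within 500 kilobases of CBX6 or CBX7, KDELR3 (0.74), FAM227A (0.80), TOMM22 (0.44), JOSD1 (0.67), SUN2 (0.34), RPL3 (0.16) and RPS19BP1 (0.97) were higher. DMC1 (-1.27) and GTPBP1 (-0.66) were lower. CBX7 (39120167 to 39152674) lies beyond APOBEC3B (-0.72), APOBEC3C (-1.29), APOBEC3D (-1.22) and APOBEC3G (-0.95), which were lower, and APOBEC3F (-0.45), which was not called, all 5 close paralogues whose reads may be shared.

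Ratios between paralogues were also taken within each library, where scaling between libraries has no part. With 2 libraries a group an exact permutation test cannot pass 0.05, so the values are given without a p. The log2 ratio of SMARCA4 to SMARCA2 CPM was 6.43 and 6.50 in the shCDK5RAP3 libraries, against 5.77 and 5.57 in the shControl libraries. ACTL6A to ACTL6B was 3.54 and 3.48 in the shCDK5RAP3 libraries, against 2.89 and 2.98 in the shControl libraries, and EZH2 to EZH1 was 2.48 and 2.57 in shCDK5RAP3, against 1.93 and 2.01 in shControl. Each of these ratios was higher in both shCDK5RAP3 libraries, by 0.80, 0.57 and 0.55 on average. For every pair taken, also those that follow, the groups did not overlap. The share for ratios of other gene pairs was not taken. Among single genes the groups did not overlap in 71.4% of all genes and 81.6% of those with a mean log2 CPM of at least 5. A lack of overlap therefore sets no pair apart by itself. BICRA to BICRAL was -0.16 and -0.03 in the shCDK5RAP3 libraries, against -0.69 and -0.80 in the shControl libraries. Smaller differences, between -0.28 and 0.17, were found for ARID1A to ARID1B, SS18 to SS18L1, RYBP to YAF2, JARID2 to AEBP2, RING1 to RNF2, RBBP4 to RBBP7 and SMARCC1 to SMARCC2.

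Other genes of the same systems also went both ways. Of 39 further Polycomb subunits, partners and opposing enzymes, 37 were tested, and 15 were higher and 10 lower (median 0.08). The Polycomb protein SFMBT2 (-1.09) and the H2A deubiquitinases USP16 (-0.74) and BAP1 (-0.72) were among the widest changes. Of 37 genes of other remodellers and of extra BAF subunits 12 were higher and 10 lower (median -0.08). These were led by CHD1 (0.72), BAZ1B (-0.61), CHD9 (-0.60) and CHD6 (-0.60). The called shares were 67.6% and 59.5%, against 41.5% of all genes and 59.2% of those with a mean log2 CPM of at least 5. The median log2 CPM of the lists was 6.25 and 7.01.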

How the data were processed

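Total RNA of 4 SK-N-BE(2) libraries, 2 shCDK5RAP3 and 2 shControl, was extracted with TRIzol and prepared with a TruSeq kit, per the labels' protocols. The authors deposited unscaled whole-number counts per Ensembl gene. HISAT2 2.2.0, StringTie and hg38 are named per the submitters' processing notes, and no source used here gives the strand setting.

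Symbols came from GENCODE 29, which matched 56591 of 64252 rows. Where a symbol had several rows, the row with the highest mean count was used. Counts were tested in R 4.3.3 with edgeR 4.0.16 (TMM factors, filter by group, quasi-likelihood test, no replicate block), with Benjamini-Hochberg adjustment over 18775 genes. Standard errors are the log2 fold change over the square root of F, and CPM uses TMM-scaled library sizes. The coefficient of biological variation came to 0.0959. Levels per kilobase divide CPM by the length of the transcript with the longest coding part. The procedure was also run on simulated counts.

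Values per library are given for called subunits with an absolute log2 change of at least 0.5 and for paralogues in their slot, and up to 4 called genes are named from each other list, with 1 gene that the rule picks not reported here. Subunits, lists and 3′ UTR words were chosen with earlier results of these data known. Every overlap of at least 5% of exon bases with a gene of at least 20 counts on average is named, and for BMI1 and CBX7 also one with a gene of fewer. For SMARCD3 a smaller overlap, with CHPF2, is named too. Alternatives were other scaling factors, other filters, DESeq2 1.42.0, limma-trend (limma 3.58.1), a replicate block, rows summed by symbol and each library left out.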

Additional observations from a re-analysis of the deposited data

How the results depend on the processing

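With no filter on low counts the adjustment covers 33921 genes, and 11 subunits were higher and 9 lower: 3 and 4 in SWI/SNF, 3 lower in PRC2 and 5 higher in PRC1, beside 1966 higher and 2522 lower over all genes. DESeq2 gave 15 higher and 15 lower subunits, with 5 higher in SWI/SNF. Over the fits with a library left out, in which a lone library is assumed to vary like the others, 9 to 19 subunits were higher and 7 to 18 lower. By complex these fits gave 3 to 7 higher and 3 to 13 lower in SWI/SNF, 2 to 4 higher and 1 to 4 lower in PRC2, and 4 to 8 higher in PRC1, with 1556 to 3516 higher and 2196 to 3813 lower over all genes. Scaling by library size gave 17 and 22 and by upper quartile 20 and 15, while RLE factors, the stricter filter and limma-trend each gave 20 and 20. Summing rows by symbol could not change a subunit, since each has 1 row. Scaling moved the median of all genes by at most 0.03 on the log2 scale. CDK5RAP3 kept its call under every alternative run, between -0.77 and -0.60. With the longest annotated 3′ UTR, an alternative chosen after seeing the data, 9 subunits hold a word in place of 3. Depth limits DPF3, PCGF5 and CBX7 most.

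Equal replicate numbers do not pair the samples by their deviations (r = 0.0534 over 18775 genes), and nothing in the labels says that they do. With a replicate block 20 subunits were higher and 22 lower, and 4430 genes were higher and 4718 lower, against 3704 and 4088 without it.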

Other observations

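Genes that Polycomb silences in many cell types were mostly too low to test. Of 26 such genes 11 passed the filter, and 3 were higher, 1 was lower and 7 were not called in the shCDK5RAP3 libraries (median 0.26, 36.4% called, against 41.5% of all genes). NEUROG2, a proneural transcription factor, had 66 and 67 counts in the shCDK5RAP3 libraries, against 10 and 8 in the shControl libraries (log2 fold change 2.86, edgeR adjusted p = 0.000297). CDKN2B, the cyclin-dependent kinase inhibitor p15, had 36 and 41 counts in the shCDK5RAP3 libraries, against 7 and 6 in the shControl libraries (2.54, edgeR adjusted p = 0.00186). The homeobox gene SIX2 was higher by 0.60 and the forkhead gene FOXC1 lower (-0.29). CDKN2A was among the 7 not called (0.19, edgeR adjusted p = 0.341), and its groups overlapped. The groups did not overlap for NEUROG2 or CDKN2B, and both were under 3 CPM in every library. The filter keeps a gene whose counts suffice in either group. NEUROG2 and CDKN2B were too low to pass by their shControl counts and were tested only because their shCDK5RAP3 counts were higher. For both, no call other than higher was possible, and both enter the calls and the median of this list.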
